A study of Homo sapiens with 21 samples.

Results

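Replicate 3 of 5 clones of SUM149PT was set against replicates 1 and 2 of the same clones. SUM149PT is a human inflammatory breast cancer line, labelled as negative for the estrogen and progesterone receptors. The comparison held 15 of the 21 libraries of the series, taken by the clone and replicate number in their titles. These were 5 replicate 3 libraries, 1 each from the clones EM1, EM2, EM3, M1 and M2, and 10 replicate 1 and 2 libraries, 2 from each of those clones. The other 6 libraries were 3 of the clone E and 3 of the parental line (Parental), and they entered no test. The series concerns a state between epithelial and mesenchymal cells, and the labels give each clone only its letters. All lines were untreated, and poly(A) RNA was read from one end. Each name stands for 1 clone, so M against EM is a comparison of 2 clones with 3. The labels do not say that replicates came from separate cultures, so the tests speak to the spread among libraries, which may be technical. They also do not say how replicate 3 was handled, so its culture, its RNA and its library preparation cannot be told apart.

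Library chemistry and culture state can each move many genes together. Amplification and fragmentation can sample a transcript more or less often according to its share of G and C bases (GC content), so libraries prepared apart can differ in how GC-rich their reads are. Cultured cells also change with feeding, density and temperature. Immediate-early genes answer serum and handling quickly, heat shock genes answer misfolded protein, NF-kB target genes answer inflammatory signals, and mitotic genes follow the share of dividing cells. The lists below were written to cover these states.

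Totals of expected counts were 41677495 to 47714108 in replicate 3, against 25039391 to 46571772 in replicates 1 and 2. KRT18, an epithelial keratin, was counted in every library, at 102 to 390.4 counts in each 1000000 of the library total (CPM) in replicate 3 and 57.3 to 296 in replicates 1 and 2. Other epithelial genes were not so even. EPCAM was at 272, 168.5 and 194 CPM in replicate 3 of EM1, EM2 and EM3, but at 0.802 and 0.147 in M1 and M2. CDH1 was at 238, 282 and 140 CPM in the same EM clones, and at 0.0708 and 0.377 in M1 and M2. ESR1, the estrogen receptor, lay at 0.0236 to 4.51 CPM in replicate 3 and 0.0534 to 4.46 in replicates 1 and 2. PGR, the progesterone receptor, was at most 0.0476 CPM in replicate 3 and 0.169 in replicates 1 and 2. Among the 5 clones, the log2 CPM of replicate 3 correlated best with the mean of replicates 1 and 2 of its own clone in 4. E and Parental were not among the lines compared, so a closer match to either of them would not have been seen. EM1 replicate 3 was the exception, with Pearson's r of 0.9599 with EM1 and 0.9632 with EM3 across genes, which are not independent. The blood, immune and endothelial markers summed to 3.44 to 10.2 CPM over their 16 genes in replicate 3, against 2.29 to 8.89 CPM in replicates 1 and 2. Of these markers CD3D, CLDN5, HBB and MS4A1 had no count in any replicate 3 library, and CD3D and HBB had none in any of the 15.

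Replicate 3 differed from replicates 1 and 2 at 7846 of 18069 genes tested (43.4%). Of these, 3993 were called higher (22.1% of genes tested) and 3853 lower (21.3%) in replicate 3, by edgeR's quasi-likelihood test with the clone as a block and a Benjamini-Hochberg adjusted p under 0.05. Among them, 1076 higher and 1269 lower genes differed by a log2 difference of at least 1. The median size of the log2 difference over all genes was 0.44, against 0.15 between replicate 2 and replicate 1. In that second contrast edgeR called 0 genes, with 387 genes at an unadjusted p under 0.05 and a smallest adjusted p of 0.787, limma-voom also called 0 and DESeq2 called 4. With the mean of each clone removed, the first principal component held 45.9% of the variance. On it replicate 3 lay between 53.4 and 78.8 and replicates 1 and 2 between -54.9 and -8.57. Replicates 1 and 2 were at -54.9 and -23.9 in EM1, but at -10.8 and -48.5 in EM2. Replicate 2 lay above replicate 1 in EM1, M1 and M2 and below it in EM2 and EM3. The contrast of replicate 2 with replicate 1 averages signed differences over clones, so opposite ones cancel. Its 0 calls and median of 0.15 do not show that these replicates were alike within a clone. On the deposited TPM, which divides by effective length, the split was 1311 higher and 3750 lower of 13948 genes (limma-trend on log2(TPM + 1)). That scale moved the median difference of all genes to -0.12, from 0.035 on counts, and differences on the count and TPM scales are read here against those medians.

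Shifted in all 5 clones is used here for a called gene whose replicate 3 level lay above both, or below both, of the other replicates in each clone. Libraries at the same level, such as 2 at 0 counts, count as neither. There were 4892 such genes (27.1% of those tested), 2366 higher (13.1%) and 2526 lower (14%). Their median log2 differences were 0.65 and -0.82. Counting genes outside the other replicates in all 5 clones whether called or not gave 5039, or 27.9%. Of the 4892 shifted genes, 3066 were called with the same sign in each of 26 other count settings, including each library or clone left out. These 26 did not include fits without the clone block, on EM or M clones only, or against replicate 1 or replicate 2 only. Fits on TPM, on protein-coding genes, with a mean CPM filter or with GC content were also not among them.

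The size and sign of the difference followed GC content. Genes in the lowest quintile of mean transcript GC content (26.8 to 42.9%) had 93 called higher and 2007 called lower of 3577, with a median log2 difference of -0.57. Genes in the highest quintile (58.3 to 75.2%) had 1658 called higher and 76 called lower of 3577, with a median of 0.45. The 3 quintiles between had medians of -0.24, 0.07 and 0.31. Spearman's rho between GC content and the log2 difference was 0.563 over all genes. Taken clone by clone it was 0.509 (EM1), 0.333 (EM2), 0.426 (EM3), 0.603 (M1) and 0.498 (M2). Among 3234 genes with a single annotated transcript, for which the choice of isoform cannot change the value, rho was 0.428, and 1240 of them (38.3%) were called. All genes share the same 15 libraries, so rho is a description. The part that GC content, isoform mixture or culture state had in the difference was not tested, and with 1 replicate number holding all of them they cannot be told apart.

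Coding stretches of 4 genes show the kind of sequence at each end of this order. JUNB and FOSB, subunits of the transcription factor AP-1, were higher in replicate 3, and CENPE and SGO2, which act at the centromeres of dividing cells, were lower. Each stretch is 150 bases inside 1 coding exon of GENCODE 29 (GRCh38), chosen as the one whose GC content is nearest that of the gene, and capitals mark G and C. JUNB lies at chr19:12791799-12791948 (plus strand, exon 1, 64.7% GC) and FOSB at chr19:45472770-45472919 (plus strand, exon 4, 59.3% GC). CENPE lies at chr4:103161099-103161248 (minus strand, exon 20, 34.7% GC) and SGO2 at chr2:200571587-200571736 (plus strand, exon 7, 40.0% GC).
JUNB: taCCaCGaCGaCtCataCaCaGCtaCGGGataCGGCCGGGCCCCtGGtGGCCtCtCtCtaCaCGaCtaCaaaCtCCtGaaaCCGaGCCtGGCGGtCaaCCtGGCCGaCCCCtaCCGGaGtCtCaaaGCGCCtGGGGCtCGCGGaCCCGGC
FOSB: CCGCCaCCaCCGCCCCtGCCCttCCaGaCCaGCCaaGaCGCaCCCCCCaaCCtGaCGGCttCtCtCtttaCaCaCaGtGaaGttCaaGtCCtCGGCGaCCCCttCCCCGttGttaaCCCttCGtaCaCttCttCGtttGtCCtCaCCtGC
CENPE: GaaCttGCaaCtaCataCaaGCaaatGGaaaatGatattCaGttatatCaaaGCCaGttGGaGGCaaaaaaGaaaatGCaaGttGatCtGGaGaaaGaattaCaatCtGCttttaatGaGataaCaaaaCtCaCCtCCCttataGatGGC
SGO2: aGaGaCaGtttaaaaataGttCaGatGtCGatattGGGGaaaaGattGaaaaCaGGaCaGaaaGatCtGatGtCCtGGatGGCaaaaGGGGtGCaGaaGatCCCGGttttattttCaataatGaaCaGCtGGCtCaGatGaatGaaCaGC

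Library by library, the mean GC content of transcripts weighted by their counts was 50.1 to 50.4% in replicate 3 and 47.97 to 49.5% in replicates 1 and 2. No library of replicates 1 and 2 reached the replicate 3 range, and EM2 replicate 1 came nearest at 49.5%. Genes of the lowest GC quintile took 16.4% of counts in replicate 3 and 23.7% in replicates 1 and 2. Genes of the highest quintile took 16.5% in replicate 3 and 12.01% in replicates 1 and 2. The mean effective length of genes with a count, by which replicate 3 had first been noticed, was 1702 to 1774 bases in replicate 3 and 1775 to 1892 bases in replicates 1 and 2. The median of length minus effective length was the same in all libraries, so effective length moved with the length of the genes and isoforms counted. In replicate 3, 4496 genes (24.9%) had an isoform-weighted length more than 10% shorter and 1518 (8.40%) one more than 10% longer. Length itself followed the difference weakly, with rho of -0.114 and medians from 0.13 in the shortest quintile to -0.14 in the longest.

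**Figure D1:**
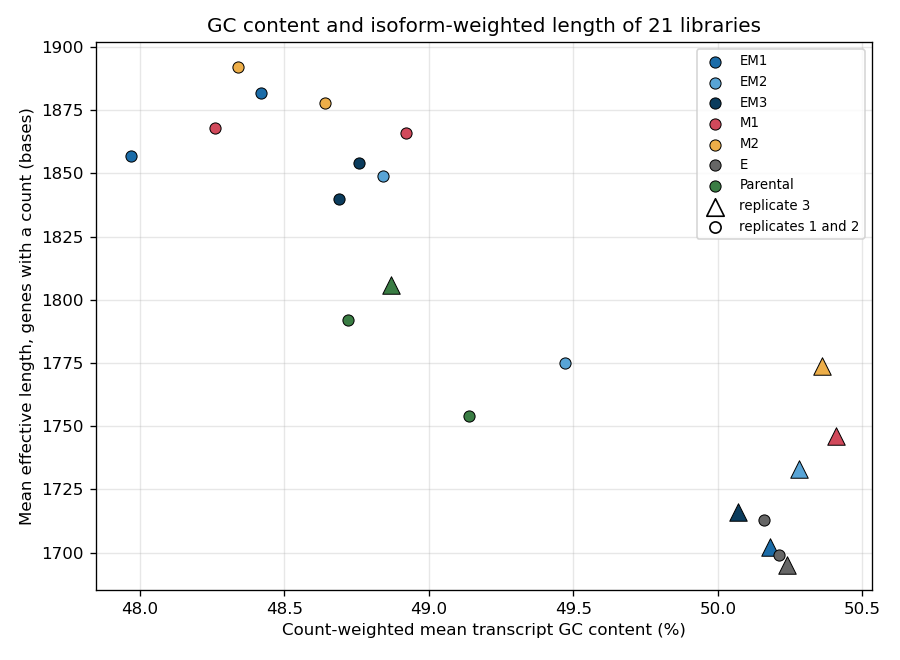
Each point is 1 of the 21 libraries, by the count-weighted mean GC content of its transcripts (x axis, %) and the mean effective length of its genes with a count (y axis, bases), with triangles for replicate 3 and circles for replicates 1 and 2. The replicate 3 triangles of the 5 clones sit at 50.1 to 50.4% beside all 3 libraries of E, while replicates 1 and 2 of those clones lie at 47.97 to 49.5%.

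A fit that removed each library's own trend on GC content shows what remained apart from that order. By construction such a fit also removes any real difference that follows GC content. It was chosen after seeing the data. It tested 17883 genes with a GC value and called 2465 higher (13.8%) and 2065 lower (11.5%), and rho with GC content was 0.027. Of 7808 genes called before with a GC value, 3351 (42.9%) were called again with the same sign and 64 with the opposite sign. Of the 4892 shifted genes, 2421 were called again, 1185 higher and 1236 lower. Each list below is given under both fits, to be read against the shares of all genes. These shares were 22.1% called higher and 21.3% lower in the first fit, and 13.8% and 11.5% with the GC trend removed.

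**Figure D2:**
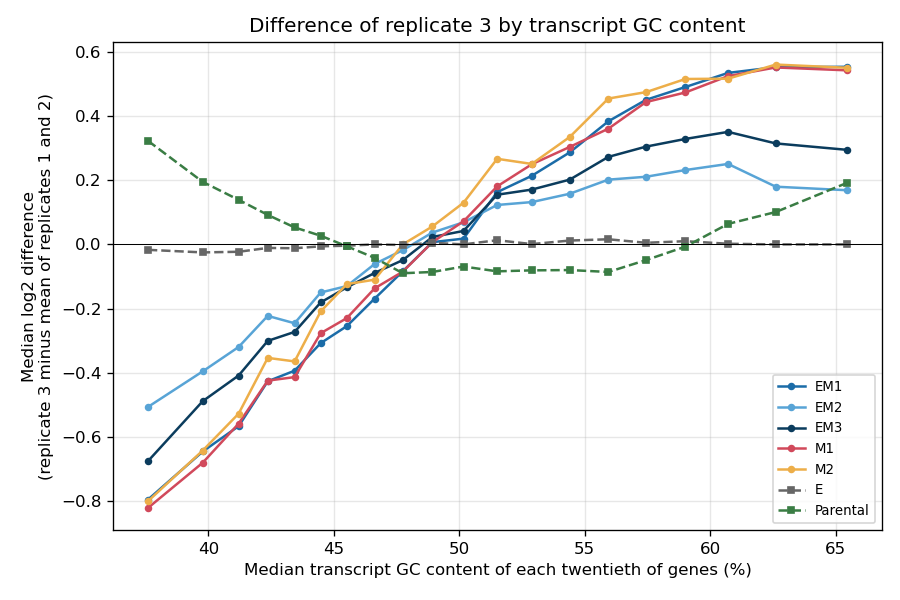
The x axis is the median transcript GC content (%) of each twentieth of the genes, and the y axis is the median log2 difference of replicate 3 from the mean of replicates 1 and 2, with solid lines for the 5 clones and dashed lines for E and Parental. All 5 clones climb from low to high GC content, with rho of 0.333 to 0.603, while E stays flat at 0.046. Parental is higher at both ends of GC content than in the middle.

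A rise over the whole range of GC content was not seen in replicate 3 of the other lines. In E, whose 3 libraries all had a GC content of 50.2%, rho was 0.046, and in Parental, at 48.7 to 49.1%, it was -0.063. The rho of Parental hides a curve. Its median difference was 0.32 in the lowest twentieth of GC content, -0.09 in twentieth 9 and 0.19 in the highest. Of the 2366 genes shifted higher in the 5 clones, 1547 (65.4%) were higher in replicate 3 of E, against 48.9% of all genes, with a median difference of 0.044. Of the 2526 shifted lower, 1693 (67.0%) were lower in E, against 49.9% of all genes, with a median of -0.054. In Parental 789 of the genes shifted higher (33.4%) were higher in replicate 3, and 672 of those shifted lower (26.6%) were lower, against 52.7% and 47.3% of all genes. These are 1 library against 2 in each line, with no test.

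Immediate-early genes, which encode short-lived transcription factors and phosphatases, were higher in replicate 3. Of 28 tested, 20 were called higher and 0 lower, with a median log2 difference of 1.12, where all genes had 22.1% called higher. With the GC trend removed, 15 were called higher and 0 lower, with a median of 0.82. NR4A1, a nuclear receptor induced by serum, had 78.7, 64.8, 109.8, 45.3 and 16.5 CPM (scaled by TMM factors, as all gene levels below) in replicate 3 of EM1, EM2, EM3, M1 and M2, against 2.21 to 12.8 CPM (median 8.92) in replicates 1 and 2. All 5 replicate 3 libraries were above all 10 others, with M2 the lowest of the 5 (log2 difference 3.01 ± 0.52, edgeR adjusted p = 0.000785). FOSB had 18.6, 15.8, 14.5, 22.6 and 7.82 CPM in replicate 3 of the same clones, against 0.459 to 12.2 CPM (median 1.37) in replicates 1 and 2. Only M2 among the replicate 3 libraries lay within the other range (log2 difference 2.99 ± 0.54, edgeR adjusted p = 0.0011). JUNB had 396, 356, 332, 173 and 71.2 CPM in replicate 3, against 33.8 to 144 CPM (median 106) in replicates 1 and 2. Again M2 alone fell inside the range of the others (log2 difference 1.37 ± 0.20, edgeR adjusted p = 0.00023). ZFP36, which speeds the decay of cytokine messages, had 45.4, 51.1, 41.3, 46.8 and 57.9 CPM in replicate 3, against 16.9 to 36.7 CPM (median 24.7) in replicates 1 and 2, without overlap (log2 difference 0.91 ± 0.13, edgeR adjusted p = 0.000213).

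Other called members were EGR3, FOS, JUN, DUSP4 and IER2, with log2 differences of 2.89, 2.24, 1.80, 1.41 and 0.93. DUSP4, a phosphatase that switches off MAP kinases, had 542, 877, 705, 715 and 46.4 CPM in replicate 3 and 14.4 to 526 CPM (median 230.5) in replicates 1 and 2. EGR3 lost its call without EM1 replicate 3 (adjusted p = 0.0548) or EM3 replicate 3 (0.0503). EGR1, the best known of these genes, had 115, 52.5, 63, 54.2 and 14 CPM in replicate 3, against 11.8 to 59.9 CPM (median 25.4) in replicates 1 and 2. It was higher than both other replicates in 4 clones and lower in M2, where replicates 1 and 2 had 26.3 and 59.9 CPM. EGR1 barely passed the test (log2 difference 1.18 ± 0.40, edgeR adjusted p = 0.0321) and did not with the GC trend removed (0.92, 0.118) or with any 1 replicate 3 library of EM1, EM2, EM3 or M1 left out (adjusted p from 0.0918 to 0.115). Its adjusted p was 0.056 to 0.0634 without EM1 replicate 1 or 2, EM2 replicate 2, EM3 replicate 1 or M1 replicate 1. By clone the median of the list was 1.497 (EM1), 1.66 (EM2), 1.45 (EM3), 1.14 (M1) and 0.13 (M2). The median was 0.07 in E and -0.012 in Parental.

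The promoter of EGR1 shows the element through which serum acts on such genes, the CArG box bound by serum response factor. The window is the 250 bases before the start of the gene, chr5:138465229-138465478 on the plus strand (RefSeq, GRCh38.p14), and capitals mark 2 CArG boxes. Of 27305 promoter windows of this length, 1.14% held a CArG box on either strand, as did 1 of the 20 immediate-early genes matched and 0 of 19 mitosis genes. That 1 gene was EGR1 itself, so the window shown does not stand for the list. Sites outside the 250 bases were not searched. The cAMP response element TGACGTCA was in 2 of the 20 and 1.77% of all windows, and the AP-1 site TGANTCA in 0 of the 20 and 6.60% of all.
EGR1: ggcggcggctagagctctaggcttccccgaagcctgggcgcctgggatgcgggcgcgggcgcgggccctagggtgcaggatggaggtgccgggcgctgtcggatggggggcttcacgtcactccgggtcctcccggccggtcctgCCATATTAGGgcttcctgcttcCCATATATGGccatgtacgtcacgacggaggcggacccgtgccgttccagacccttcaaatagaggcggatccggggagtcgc

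LIF and IL11, 2 secreted cytokines, were called higher. LIF had 427, 158, 200.3, 254 and 3.12 CPM in replicate 3, against 1.94 to 82.5 CPM (median 12.2) in replicates 1 and 2. It was above every other library in EM1, EM2, EM3 and M1, and in M2 it lay between that clone's own 1.94 and 8.35 CPM (log2 difference 3.04 ± 0.75, edgeR adjusted p = 0.00649). IL11, a cytokine that uses the same signalling subunit, had 93.9, 238, 165, 641 and 0.49 CPM in replicate 3, against 0 to 287 CPM (median 7.98) in replicates 1 and 2. Every clone had IL11 higher in replicate 3 than in its own replicates 1 and 2, though the groups overlap because M1 was high throughout, at 52.8 and 287 CPM (log2 difference 3.60 ± 0.67, edgeR adjusted p = 0.00133). In E the levels hardly differed: LIF was at 133 CPM in replicate 3, against 125 and 125 in replicates 1 and 2, and IL11 at 66.8, against 50.9 and 61 (values of E and Parental are scaled over all 21 libraries).

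The NF-kB list, which holds cytokines, chemokines and the inhibitors that NF-kB induces, had 11 of 34 genes called higher and 0 lower, with a median of 0.82. Of all genes, 22.1% were called higher. With the GC trend removed, 6 were called higher and 0 lower, with a median of 0.79, where 13.8% of all genes were called higher. The medians by clone were 0.93 (EM1), 1.60 (EM2), 1.04 (EM3), 0.48 (M1) and -0.47 (M2). Without clone M2 the count called higher was 22, and without M2 replicate 3 alone it was 20. The called genes included the complement genes C3 and CFB and the colony-stimulating factors CSF2 and CSF3. C3 had 817, 1143, 1101, 1167 and 948 CPM in replicate 3, against 209.7 to 824 CPM (median 446) in replicates 1 and 2. It was higher in replicate 3 than in both other replicates of each clone, M2 included (log2 difference 1.103 ± 0.24, edgeR adjusted p = 0.00273). CXCL8, a chemokine that draws neutrophils, had 337, 794, 418, 3129 and 6.46 CPM in replicate 3, and was named after its values were seen. In replicates 1 and 2 it had 9.7 to 2984 CPM (median 161). In M2 it was lower than the clone's own 61.3 and 202 CPM, and in EM2 higher than 121 and 9.7, and the fit made no call (log2 difference 1.31, adjusted p = 0.269). IL1B was likewise higher in 4 clones and lower in M2, IL6 was higher in EM2, EM3 and M1 and lower in M2, and neither was called (adjusted p = 0.144 and 0.402). Without M2 replicate 2 or 3, IL1B passed the test (adjusted p = 0.0378 and 0.0159). M1 replicate 3 held the highest CXCL8, IL1B and IL6 of the 15 libraries.

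Heat shock chaperones did not move together in the 5 clones. Of 18 tested, 2 were called higher and 3 lower, with a median of 0.26, and 0 higher and 1 lower (CHORDC1) with the GC trend removed. The count called lower was 7 without M2 replicate 2 and 6 without M2 replicate 3. The count called higher was 0 without EM1 replicate 3 and 1 without M1 replicate 1, M1 replicate 3, M2 replicate 1 or M2 replicate 3. By clone the median was -0.14 (EM1), -0.26 (EM2), -0.31 (EM3), 0.02 (M1) and 0.97 (M2). HSPA6, a chaperone made almost only under stress, had 0.549, 0.566, 0.539, 0.57 and 4.21 CPM in replicate 3, against 0 to 0.518 CPM (median 0.203) in replicates 1 and 2. All 5 were above all 10, 4 of them only just, and M2 far above (log2 difference 1.84 ± 0.63, edgeR adjusted p = 0.0307). The call was lost with the GC trend removed (adjusted p = 0.0959) and without M2 replicate 3 (0.92, adjusted p = 0.123). It was also lost without EM1 replicate 3 (0.0666), M1 replicate 1 (0.0507) or M2 replicate 1 (0.0752). HSPA1A, the main inducible HSP70, was named after its values were seen. It had 208, 181, 218, 123 and 446 CPM in replicate 3, against 2.01 to 237 CPM (median 129) in replicates 1 and 2, and was not called (adjusted p = 0.178). The M2 value stood against 16 and 2.01 CPM in that clone's replicates 1 and 2, which were the 2 lowest of the 15 libraries, and the fitted difference was 0.31 without M2 replicate 3 and 1.40 with it. Its near-identical copy HSPA1B showed 668 CPM in M2 replicate 3, against 41.5 and 6.34, and reads of the pair may be divided between them. HSPA8 and DNAJB1 were also highest in M2 replicate 3, at 10780 and 291 CPM. Called lower were CHORDC1, DNAJB4 and HSPA4, of which HSPA4 changed sign to 0.10 with the GC trend removed.

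The unfolded protein response had 6 of 18 called higher and 0 lower, with 4 and 0 once the GC trend was removed, and 1 lower without M2 replicate 3. HSPA5, the chaperone of the endoplasmic reticulum, had 1173, 929, 1105, 1360 and 1425 CPM in replicate 3, against 542 to 1108 CPM (median 780) in replicates 1 and 2. It exceeded both other replicates in each clone though the ranges overlap (log2 difference 0.64 ± 0.14, edgeR adjusted p = 0.00297). The amino acid response (ATF4 targets) had 9 of 22 called higher and 0 lower, but 2 and 0 with the GC trend removed. It had 4 higher without EM1 replicate 3, 5 without EM2 replicate 3 and 17 without M2 replicate 2, and the median of M2 was -0.11. Of the 9, PHGDH, which opens the serine pathway, and ALDH1L2 kept the call with the GC trend removed, at 0.65 and 1.34. The oxidative stress list (NRF2 targets) had 8 of 20 called higher and 1 lower, 7 and 0 with the GC trend removed, and 5 and 2 without M2 replicate 3. HMOX1, which degrades heme, had 13.1, 10.8, 7.08, 20.2 and 1757 CPM in replicate 3, against 1.78 to 54.4 CPM (median 4.67) in replicates 1 and 2. It was higher than both other replicates in every clone, and M2 held by far the highest level of the 15 libraries (log2 difference 2.48 ± 0.59, edgeR adjusted p = 0.00547). Without M2 replicate 3 its log2 difference was 1.51 (adjusted p = 0.00236). The ferritin subunits FTL and FTH1, which store iron, rose by 1.05 and 1.04, and FTH1 by 0.69 without M2 replicate 3.

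Metallothioneins, which bind zinc and copper, had 4 of 6 called higher and 1 lower, and 3 and 0 with the GC trend removed. MT2A had 840.2, 644, 667, 997 and 969.5 CPM in replicate 3, against 279 to 593 CPM (median 386) in replicates 1 and 2. The groups did not overlap (log2 difference 1.05 ± 0.14, edgeR adjusted p = 0.00013), and MT2A remained called with the GC trend removed (0.75). The zinc exporter SLC30A1 was the one called lower, at -0.73, and lay at -0.01 with the GC trend removed (adjusted p = 0.987). Of 18 p53 targets, 5 were called higher and 4 lower, 2 and 0 with the GC trend removed, and 3 higher without EM1 replicate 3. MDM2, which degrades p53, was called lower (-0.80), and not with the GC trend removed (-0.25, adjusted p = 0.0556). Hypoxia and glycolysis genes had 1 of 24 called higher and 6 lower, and 0 and 4 with the GC trend removed. The 1, ALDOC, was joined by up to 2 others or lost with single libraries left out. BNIP3, a mitophagy receptor, fell by 0.76 on the log2 scale and by 0.99 with the GC trend removed. LDHA, which makes lactate, had 632, 1034, 699, 1425 and 1847 CPM in replicate 3, against 1232 to 2689 CPM (median 1655) in replicates 1 and 2 (log2 difference -0.72 ± 0.15, edgeR adjusted p = 0.00202). It was below both other replicates in every clone but M2, and its call was lost with effective length as an offset (-0.25, adjusted p = 0.229).

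Mitotic genes were lower in replicate 3 of all 5 clones. Of 24 tested, 0 were called higher and 18 lower, with a median of -0.75, where 21.3% of all genes were called lower, and 14 of them were shifted in all 5 clones. With the GC trend removed, 16 were called lower, with a median of -0.58. The median by clone was -0.65 (EM1), -1.05 (EM2), -0.74 (EM3), -0.46 (M1) and -0.79 (M2), and -0.27 (E). CENPE, a kinesin that carries chromosomes to the spindle middle, had 67.2, 57, 66, 65.4 and 41 CPM in replicate 3, against 134 to 342 CPM (median 244) in replicates 1 and 2. No replicate 3 library came near the range of the others (log2 difference -1.95 ± 0.25, edgeR adjusted p = 0.000116), and with the GC trend removed the difference was -0.95 (adjusted p = 0.00438). KIF11, the motor that separates spindle poles, had 87.3, 71.5, 78.3, 94.8 and 56.2 CPM in replicate 3, against 144 to 311 CPM (median 215) in replicates 1 and 2, also without overlap (log2 difference -1.57 ± 0.19, edgeR adjusted p = 6.38e-05). CCNA2, cyclin A, had 121, 85.1, 108, 121 and 55.1 CPM in replicate 3 and 127 to 358 CPM (median 236) in replicates 1 and 2, with all 5 below all 10 (log2 difference -1.37 ± 0.17, edgeR adjusted p = 7.42e-05). MKI67, the gene of the proliferation antigen Ki-67, had 439, 394, 458, 473 and 397 CPM in replicate 3, against 568 to 956 CPM (median 711) in replicates 1 and 2. Its groups were apart as well (log2 difference -0.75 ± 0.14, edgeR adjusted p = 0.00103), and -0.56 remained with the GC trend removed (adjusted p = 0.00933).

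TOP2A, which untangles replicated DNA, had 352, 363, 387, 474 and 387 CPM in replicate 3, against 518 to 1228 CPM (median 730.1) in replicates 1 and 2. The groups did not overlap (log2 difference -0.96 ± 0.16, edgeR adjusted p = 0.000545), yet with a GC content of 38.4% it was not called with the GC trend removed (-0.24, adjusted p = 0.227). SGO2, which guards cohesion at centromeres and lies outside the list, had 13.1, 12.3, 15.2, 17.7 and 26.9 CPM in replicate 3, against 45 to 129 CPM (median 102) in replicates 1 and 2. Each replicate 3 library was below all 10 others (log2 difference -2.42 ± 0.32, edgeR adjusted p = 0.000142). UBE2C, FOXM1, AURKB and MYBL2, which also act in mitosis, were not called, at 0.13, -0.09, -0.13 and -0.19. In E, CENPE was at 33 CPM in replicate 3, against 43.6 and 35 in replicates 1 and 2. In Parental it was at 251 CPM in replicate 3, against 137 and 145, the opposite order.

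Promoters of mitotic genes often carry a CCAAT box, bound by NF-Y, and the letters TTTGAA, the core through which the DREAM complex represses them outside mitosis. KIF11 and TOP2A are shown because the first remained called with the GC trend removed and the second did not. Windows are the 250 bases before the start, chr10:92592880-92593129 (plus strand) and chr17:40417897-40418146 (minus strand), from RefSeq (GRCh38.p14), and capitals mark both motifs on either strand, 1 CCAAT and 1 TTTGAA in KIF11, 4 and 2 in TOP2A. CCAAT was in 16 of 19 mitosis promoters, 7 of 20 immediate-early promoters and 33.0% of all 27305. TTTGAA was in 9 of 19, 3 of 20 and 13.6% of all. The 2 motifs do not overlap, and a match is not a bound site.
KIF11: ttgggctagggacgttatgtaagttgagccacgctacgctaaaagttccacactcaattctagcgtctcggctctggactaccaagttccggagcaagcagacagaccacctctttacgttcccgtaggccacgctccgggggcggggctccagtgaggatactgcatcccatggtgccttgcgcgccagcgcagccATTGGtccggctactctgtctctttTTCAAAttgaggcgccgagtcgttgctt
TOP2A: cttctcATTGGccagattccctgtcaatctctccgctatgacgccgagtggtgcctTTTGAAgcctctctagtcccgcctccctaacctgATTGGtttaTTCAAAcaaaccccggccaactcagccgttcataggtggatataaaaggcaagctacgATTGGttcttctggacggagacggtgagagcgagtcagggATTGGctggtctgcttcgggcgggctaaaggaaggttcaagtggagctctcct

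DNA replication genes gave a weaker picture that depended on M2. Of 24 tested, 4 were called lower, RRM1, POLA1 and RRM2 among them, and 0 higher, with a median of -0.26, and 1 lower (RRM2) with the GC trend removed. In M2 the median was 0.88, and with the EM clones only 18 were called lower. Without M2 replicate 2 the count was 13. It was 0 without EM1 replicate 3, 1 without EM3 replicate 3, and 2 without EM2 replicate 1 or the replicate 3 library of EM2 or M1. Replication-dependent histone genes, whose messages normally lack a poly(A) tail, had 0 of 52 called higher and 30 lower, with a median of -1.14. With the GC trend removed 33 were lower, with a median of -1.24. Only 4 were shifted in all 5 clones, and the clone medians were -0.94, -1.07, -0.91, -0.09 and -2.12, with Parental at 1.23. The count called lower was 17 without EM2 replicate 3. Their share of all counts was 0.00984% ± 0.00439 in replicate 3 and 0.0173% ± 0.00762 in replicates 1 and 2 (SD, n = 5 and 10; exact within-clone permutation test, two-sided, p = 0.0535, adjusted p = 0.0713 over 8 library measures), so poly(A) libraries held few of them. Many histone genes are near copies of each other, and counts may be divided among them.

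Cytosolic ribosomal protein genes rose as a block. Of 73 tested, 63 were called higher and 0 lower, 60 of them shifted in all 5 clones, with a median of 0.55. With the GC trend removed 59 were higher and 0 lower, with a median of 0.45, and on TPM 34 were higher and 2 lower, with a median of 0.24. Their share of all counts was 7.59% ± 1.06 in replicate 3 and 5.61% ± 0.837 in replicates 1 and 2 (SD, n = 5 and 10). The share was above both other replicates in 5 of 5 clones (exact within-clone permutation test, two-sided, p = 0.00412, the smallest this design allows, adjusted p = 0.0165). With their pseudogenes added the share was 7.67% in replicate 3 and 5.70% in replicates 1 and 2. RPL28, a protein of the large subunit, had 614, 757, 586, 730.5 and 1133 CPM in replicate 3, against 259.8 to 442 CPM (median 355) in replicates 1 and 2. No replicate 3 library overlapped the others (log2 difference 1.05 ± 0.11, edgeR adjusted p = 3.62e-05). RPS2, of the small subunit, rose by 0.79 with overlap between clones, and RPL27A by 0.72 without. In E, RPL28 was at 819 CPM in replicate 3, against 745 and 785 in replicates 1 and 2. In Parental the list's median was -0.41.

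Of 22 genes that build ribosomes, 6 were called higher and 0 lower, where 22.1% of all genes were called higher, with a median of 0.13, and 3 (NPM1, WDR12 and GNL3) and 1 (TCOF1) with the GC trend removed. The count called higher was 1 without M2 replicate 3 and 0 in the EM clones alone. Nuclear genes of oxidative phosphorylation had 24 of 43 called higher and 2 lower, with a median of 0.26, and 18 and 2 with the GC trend removed, but 9 and 8 on TPM, with a median of -0.031. COX6A1, of cytochrome oxidase, rose by 0.60, and by 0.63 with the GC trend removed. The 12 mitochondrially encoded genes tested had 0 higher and 4 lower (MT-ND4, MT-ND4L, MT-ND5 and MT-ND6). With the GC trend removed 1 was higher (MT-ND3) and 0 lower. The 4 calls were all lost without the replicate 3 library of EM1, EM3 or M2, and 1 or 2 were left without EM1 replicate 2, EM2 replicate 1 or 3, EM3 replicate 1, M1 replicate 2 or 3, or M2 replicate 1. The list's median in Parental was -2.17. Their share of counts was 2.08% ± 0.367 in replicate 3 and 2.78% ± 0.752 in replicates 1 and 2 (SD, n = 5 and 10; exact permutation test as above, p = 0.0535, adjusted p = 0.0713).

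Lipid synthesis genes, which SREBP factors control, were higher, most in EM1 and least in M2. The cholesterol list had 13 of 25 called higher and 1 lower, 7 and 0 with the GC trend removed, and 7 higher without EM1 replicate 3. Its median by clone was 1.02 (EM1), 0.23 (EM2), 0.34 (EM3), 0.60 (M1) and 0.04 (M2), with -0.11 in E and 0.61 in Parental. SREBF2, a factor that switches these genes on, had 409, 237, 369, 281 and 135 CPM in replicate 3, against 98.9 to 245 CPM (median 132) in replicates 1 and 2. It was higher than both other replicates in every clone, while the ranges overlap (log2 difference 0.88 ± 0.13, edgeR adjusted p = 0.000252). DHCR7, the last step to cholesterol, rose by 1.07, and lay between the other replicates in M2. SC5D, a late step of the pathway, was the gene called lower, at -0.73. HMGCS1, an early step, and SQLE, a limiting one, were not called, at 0.05 and 0.01. Fatty acid synthesis had 8 of 13 called higher and 0 lower under both fits. Its median by clone was 1.21 (EM1), 0.49 (EM2), 0.89 (EM3), 0.68 (M1) and 0.14 (M2), with -0.07 in E and 0.22 in Parental. FASN, the synthase itself, had 5715, 1215, 4181, 846 and 585 CPM in replicate 3, against 222 to 1911 CPM (median 835) in replicates 1 and 2. EM1 and EM3 replicate 3 lay above all others (log2 difference 1.27 ± 0.22, edgeR adjusted p = 0.000821). ACSS2, which makes acetyl-CoA from acetate, rose by 1.73 and FADS2, a desaturase, by 1.20.

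**Figure D3:**
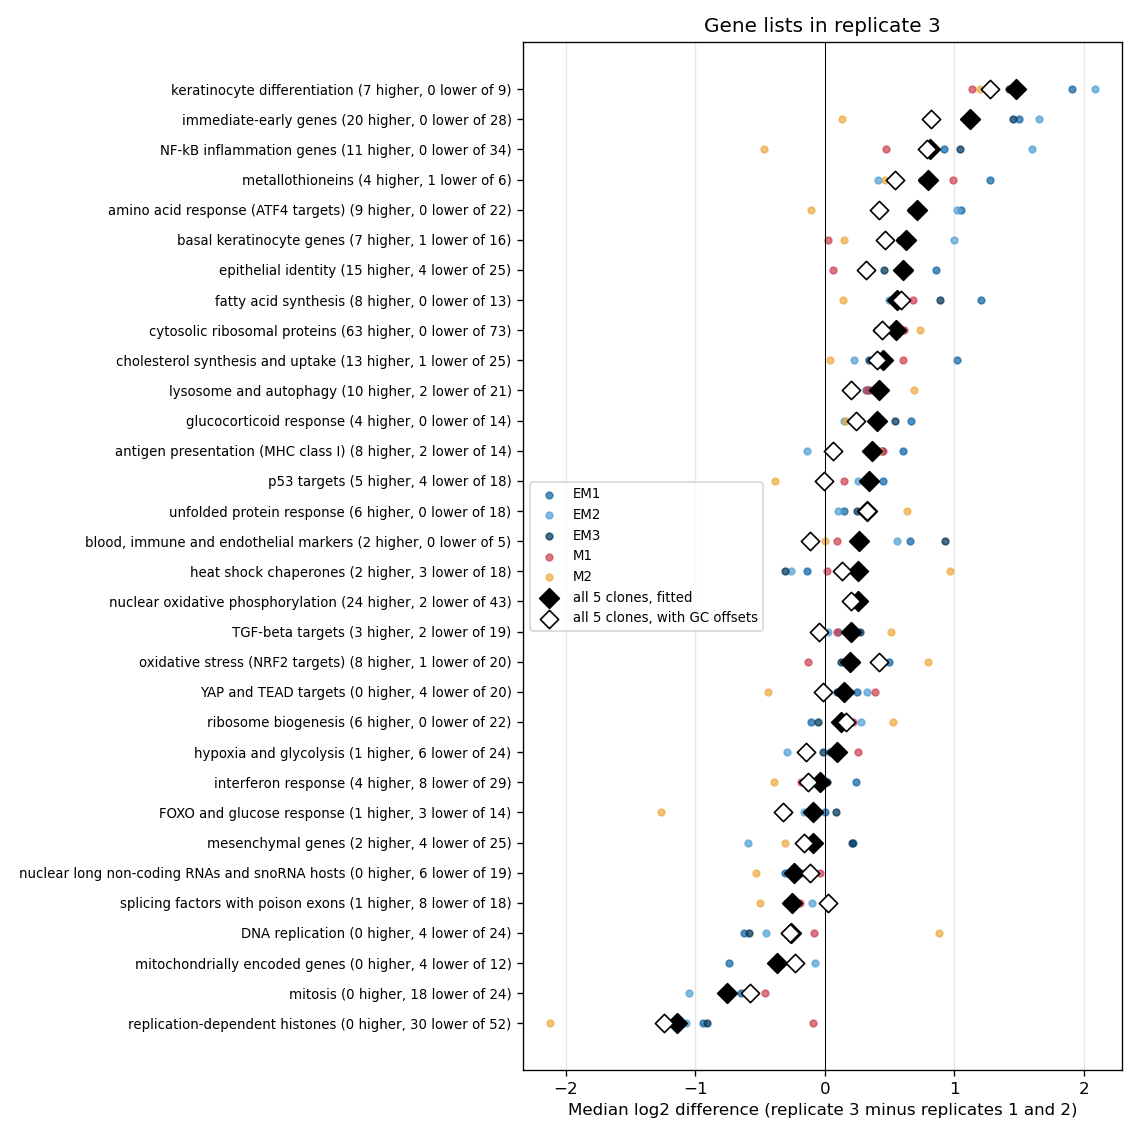
For each of the fixed gene lists, the x axis gives the median log2 difference of replicate 3 from replicates 1 and 2, with small points for single clones, filled diamonds for the fit over 5 clones and open diamonds for that fit with the GC trend removed. Keratinocyte differentiation (9 of 20 genes tested, 1.48) and immediate-early genes (1.12) lie highest, mitosis (-0.75) and histones (-1.14) lowest, and M2 departs from the other clones for NF-kB, heat shock and DNA replication genes.

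Keratins of differentiating or wounded epidermis were higher in replicate 3. Of 20 genes in the list 9 passed the filter, and 7 were called higher and 0 lower, or 5 and 0 with the GC trend removed. KRT17 had 308, 1016, 314, 275 and 0.579 CPM in replicate 3, against 0.157 to 128 CPM (median 34.4) in replicates 1 and 2. All clones but M2 were above all 10 others, and M2, with almost none, was still above its own 0.157 and 0.309 CPM (log2 difference 2.98 ± 0.49, edgeR adjusted p = 0.000575). KRT16, its partner in stressed epidermis, had 104, 84.9, 110, 12.8 and 0.847 CPM in replicate 3, against 0.116 to 31.9 CPM (median 7.17) in replicates 1 and 2, in the same pattern with M1 also low (log2 difference 2.61 ± 0.39, edgeR adjusted p = 0.000327). In E, where KRT17 was high in all 3 libraries, it was at 2928 CPM in replicate 3, against 1864 and 2559. KRT6B and KRT23 rose by 2.30 and 2.90.

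Epithelial genes leaned the same way. Mesenchymal genes moved little in the first fit and leaned lower with the GC trend removed. The epithelial list had 15 of 25 called higher and 4 lower, with a median of 0.61. With the GC trend removed the counts were 8 and 3, with a median of 0.32. By clone the median was 0.86 (EM1), 0.61 (EM2), 0.46 (EM3), 0.07 (M1) and 0.65 (M2). CDH1, the epithelial cadherin, had 237, 297, 137, 0.0744 and 0.401 CPM in replicate 3, against 0 to 120.2 CPM (median 65.5) in replicates 1 and 2. The EM clones lay above all 10 others, and M1 and M2 had next to none (log2 difference 1.34 ± 0.26, edgeR adjusted p = 0.00139). OVOL1, a repressor of mesenchymal genes, and CLDN4, a tight junction protein, rose by 2.32 and 1.87. EPCAM, GRHL2, MAL2 and CDS1, also epithelial, were called lower, 2 of them without the replicate 3 library of EM1, EM3 or M1, and EPCAM lost that call with the GC trend removed (-0.52, adjusted p = 0.0751). Basal keratinocyte genes had 7 of 16 called higher and 1 lower, 4 and 1 with the GC trend removed, and 3 higher without EM2 replicate 3 and 4 without EM1 replicate 3. The gene called lower, ITGA6, lost its call without EM1 or M1 replicate 3. DSG3, a desmosomal cadherin, had 281, 83.3, 163, 0.0248 and 0.223 CPM in replicate 3, against 0.0232 to 46.4 CPM (median 15.9) in replicates 1 and 2, with all 3 EM clones above the others (log2 difference 2.31 ± 0.35, edgeR adjusted p = 0.000345). The mesenchymal list had 2 of 25 called higher and 4 lower, with a median of -0.09. With the GC trend removed the counts were 2 and 7, with a median of -0.16, where 11.5% of all genes were called lower. ZEB2, PRRX1 and FAP, 2 transcription factors and a surface protease, fell by 0.96, 1.28 and 1.04 on the log2 scale, while SNAI2 rose by 0.71. Summed over the list, mesenchymal genes took 3305 to 32680 CPM in replicate 3 and 4371 to 35160 in replicates 1 and 2, and epithelial genes took 360 to 3572 CPM in replicate 3 and 296 to 2929 in replicates 1 and 2.

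Interferon response genes were divided. Of 29 tested, 4 were called higher and 8 lower, with a median of -0.036, and 3 and 6 with the GC trend removed. IFIT1, which binds foreign RNA, had 0.167, 0.246, 0.258, 0.4216 and 0.423 CPM in replicate 3, against 0.586 to 3.04 CPM (median 1.59) in replicates 1 and 2. All 5 were below all 10, at low levels (log2 difference -2.46 ± 0.43, edgeR adjusted p = 0.000633). IFIT2, IFIT3, HERC5 and CMPK2 fell by 1.54, 1.18, 1.28 and 1.41, and ISG20, BST2 and IFITM1 rose by 1.45, 0.65 and 0.50. On TPM the interferon median was -0.28. Genes of MHC class I presentation had 8 of 14 called higher and 2 lower, but 0 and 1 with the GC trend removed, and 0 and 2 on TPM. The count called higher was 2 without EM1 replicate 3, 3 without M1 replicate 3, 4 without M2 replicate 3 or EM1 replicate 1, and 5 without EM3 replicate 3.

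The remaining lists had few calls or calls both ways. YAP and TEAD targets had 0 of 20 higher and 4 lower (0 and 2 with the GC trend removed), and TGF-beta targets 3 of 19 higher and 2 lower (2 and 1). Single libraries left out moved the YAP count higher to at most 2 and the TGF-beta count lower to 1. BHLHE40, a clock and hypoxia repressor in the TGF-beta list, rose without overlap between groups (log2 difference 1.34 ± 0.20, edgeR adjusted p = 0.000308). Glucocorticoid response genes had 4 of 14 called higher and 0 lower, 3 and 0 with the GC trend removed, and 2 without EM1 replicate 3. FOXO and glucose response genes had 1 of 14 higher (INSR) and 3 lower, 0 and 3 with the GC trend removed, and 2 higher without EM2 replicate 1 or M2 replicate 2. TXNIP, a gene that glucose induces, was lower at -1.85 (adjusted p = 0.0111). Lysosome and autophagy genes had 10 of 21 higher and 2 lower, and 9 and 0 with the GC trend removed. On TPM the medians of the heat shock, hypoxia and YAP lists were -0.044, -0.15 and -0.18, where counts gave 0.26, 0.10 and 0.15. Nuclear non-coding RNAs and snoRNA hosts had 0 of 19 higher and 6 lower, and 0 and 2 with the GC trend removed. The count called higher was 3 without M2 replicate 2 and 1 without M2 replicate 3. MALAT1, an abundant nuclear RNA, had 669.8, 546, 649.6, 381 and 345 CPM in replicate 3, against 469 to 1207 CPM (median 1016) in replicates 1 and 2 (log2 difference -0.79 ± 0.19, edgeR adjusted p = 0.00498). It was lowest in M2 replicate 3, and without the GC trend lay at -0.19 (adjusted p = 0.437). Splicing factors with poison exons had 1 of 18 higher and 8 lower, and 4 and 3 with the GC trend removed, with 2 higher without EM2 replicate 1, M1 replicate 2 or any 1 library of M2. CLK1, a kinase of splicing factors, was below all others in each replicate 3 library (log2 difference -1.18 ± 0.15, edgeR adjusted p = 9.41e-05). Of the blood, immune and endothelial markers, 5 passed the filter, and CD14 and PECAM1 were called higher (1 of them without the replicate 3 library of EM1, EM2 or EM3), at 1.27 and 1.22, and not with the GC trend removed (adjusted p = 0.0699 and 0.0529).

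The largest log2 differences among genes shifted in all 5 clones were in part genes whose reads are shared. Genes named here needed a mean of at least 1 CPM over all 15 libraries, replicate 3 included. Some rises therefore passed only through replicate 3, and some falls only through replicates 1 and 2. AC008695.1, ZFP91-CNTF and AC022826.2, for example, lay under 1 CPM in every library of replicates 1 and 2. Among the 15 protein-coding genes with the largest rises, ZFP91-CNTF, TGIF2-RAB5IF, TMEM189-UBE2V1 and SYS1-DBNDD2 are read-through genes that join 2 neighbours. AC008695.1, AC022826.2 and AC012254.2 span named neighbours too. ZFP91-CNTF had 11.6, 9.33, 10.5, 5.58 and 12.2 CPM in replicate 3, against 0 to 0.654 CPM (median 0.221) in replicates 1 and 2, without overlap. Counts of such genes depend on how RSEM divides reads with ZFP91 and CNTF, so they are uncertain. Over all 82 read-through genes tested, 24 were called higher and 6 lower, where 22.1% and 21.3% of all genes were. TMEM189-UBE2V1 lost its call without EM1 replicate 3 (adjusted p = 0.0629) or EM3 replicate 3 (0.0503). Of the 15 largest falls, AP003419.1, AC134669.1 and AC008575.1 span neighbouring genes. AP003419.1 had 0 counts in all 5 replicate 3 libraries, against 0.288 to 4.56 CPM (median 2.81) in replicates 1 and 2. A floor of 3 counts over the 5 libraries is 0.0139 CPM, and the level was thus at least 203-fold lower, for counting error only. AL163540.1, a gene outside the protein-coding class, was also at 0 in replicate 3, against 0.735 to 6.41 CPM (median 3.21), at least 233-fold lower by the same floor.

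The largest rises also held genes that join no neighbours. EGR4, an immediate-early factor, had 11.6, 2.76, 6.63, 1.39 and 0.156 CPM in replicate 3, against 0 to 0.482 CPM (median 0.028) in replicates 1 and 2 (log2 difference 4.59 ± 0.70, edgeR adjusted p = 0.000353). It had 945 counts in replicate 3 and 57 in replicates 1 and 2, so it passed the floor for naming only through replicate 3. PRSS22, a secreted serine protease, had 85.2, 20.5, 38.9, 0.62 and 0.0223 CPM in replicate 3, against 0 to 3.56 CPM (median 1.89) in replicates 1 and 2, with the 3 EM clones above all others (log2 difference 3.84 ± 0.28, edgeR adjusted p = 8.62e-06). C11orf96 rose by 4.63, the ion channel TRPV3 by 3.43 and CHI3L1, a chitinase-like secreted protein, by 3.00. Each was above both other replicates in every clone, though levels differ so much between clones that the groups overlap. For TRPV3 the M2 shift lay at the floor, with 0.0223 CPM in replicate 3 against 0 and 0 in replicates 1 and 2. PRSS22 had the same values in M2, so for both genes the shift in that clone is not secure.

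Among the other large falls was PTGFR, the prostaglandin F receptor, at 4.99, 6.01, 11.3, 45.9 and 4.66 CPM in replicate 3, against 20.5 to 469.7 CPM (median 45.4) in replicates 1 and 2. M1 replicate 3 lay within the range of the other clones, below its own 469.7 and 148 CPM (log2 difference -2.79 ± 0.40, edgeR adjusted p = 0.000259). ROR1, a receptor for WNT5A, had 1.27, 1.06, 1.52, 0.868 and 33 CPM in replicate 3, against 4.84 to 65.9 CPM (median 10.2) in replicates 1 and 2 (log2 difference -2.35 ± 0.32, edgeR adjusted p = 0.00016). M2 was high in all its libraries, and the other clones were below every library of replicates 1 and 2. RBM43, an RNA-binding protein, fell without overlap (log2 difference -2.65 ± 0.35, edgeR adjusted p = 0.000115), and TRIM59, ZNF804A, NEGR1, FIGN and CCDC110 by 2.24 to 2.60 on the log2 scale. ASPM, which organises spindle poles, fell too, at 104, 60.6, 121, 106 and 55 CPM in replicate 3, against 200 to 719 CPM (median 409) in replicates 1 and 2 (log2 difference -2.23 ± 0.23, edgeR adjusted p = 3.99e-05). CCDC110 lost its call with the GC trend removed (adjusted p = 0.0545). The other large differences were in the pseudogene SLC2A3P1, which lies within PANK3, and AC132872.3 and AC132872.4, all higher, and AD000090.1, antisense to ATP4A, and FP236383.2, both lower. SLC2A3P1 had 11.9, 9.53, 9.98, 4.12 and 4.97 CPM in replicate 3, against 4.06 CPM in EM2 replicate 1 and no count in the other 9 libraries, so its fitted difference moved by over 1.5 times without EM2 replicate 1 or 3. The strand setting was not given, so an antisense gene cannot be told from its partner.

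**Figure D4:**
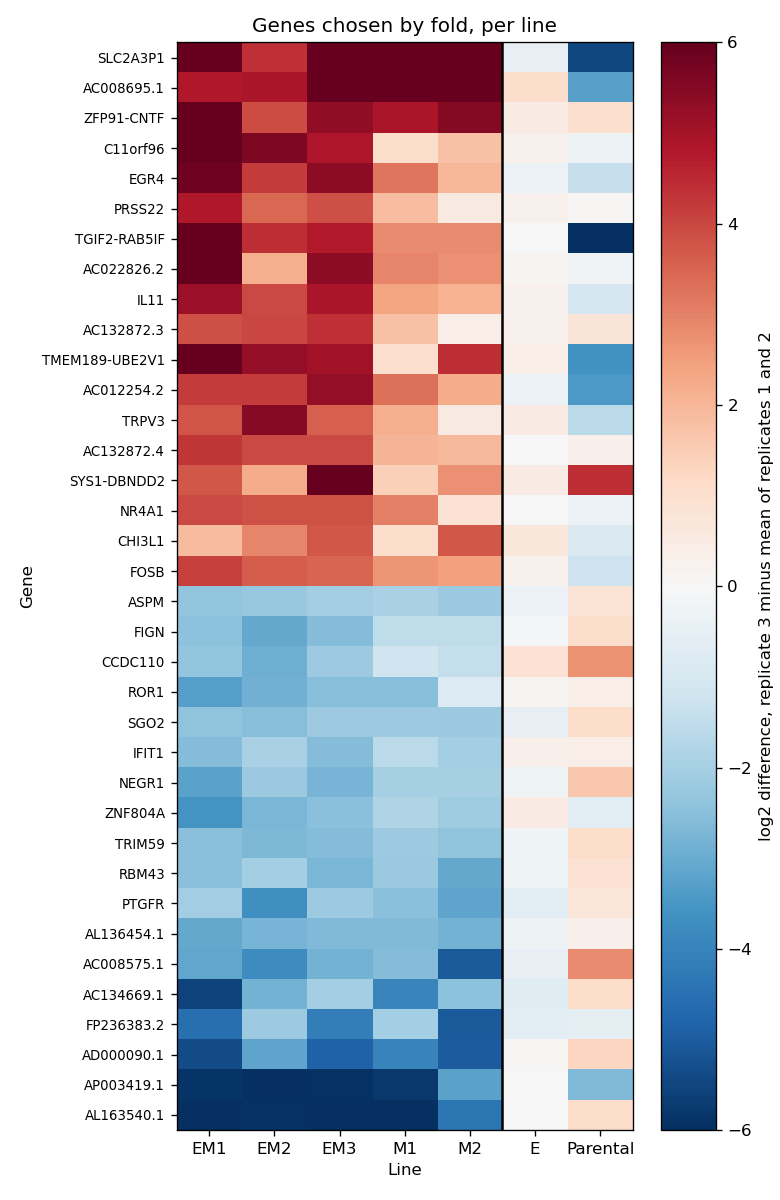
Rows are the genes with the largest shifts in all 5 clones, and columns the 5 clones, then E and Parental, coloured by the log2 difference of replicate 3 from the mean of replicates 1 and 2, with the colour scale ending at 6 and -6. The 5 clone columns share one sign in every row, and E and Parental do not follow them throughout.

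Gene types differed in how they moved. Processed pseudogenes, which are spliced copies of other genes, had 35 of 671 called higher and 354 lower, with a median of -1, and 32 and 281 with the GC trend removed, with a median of -0.84. Among pseudogenes of ribosomal proteins 6 of 113 were higher and 61 lower, the opposite sign to the ribosomal protein genes. Processed pseudogenes took 0.181% of counts in replicate 3 and 0.204% in replicates 1 and 2, so their counts are few and rest on how reads were divided. Genes within introns on the same strand (sense intronic) had 5 of 128 higher and 35 lower, and 10 and 5 with the GC trend removed. Their share was 0.0120% in replicate 3 and 0.0168% in replicates 1 and 2, lower in 5 of 5 clones. All genes that are not protein coding took 2.50% ± 0.487 in replicate 3 and 3.43% ± 0.385 in replicates 1 and 2 (SD, n = 5 and 10), below both other replicates in 5 of 5 clones (exact within-clone permutation test, two-sided, p = 0.00412, adjusted p = 0.0165).

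**Figure D5:**
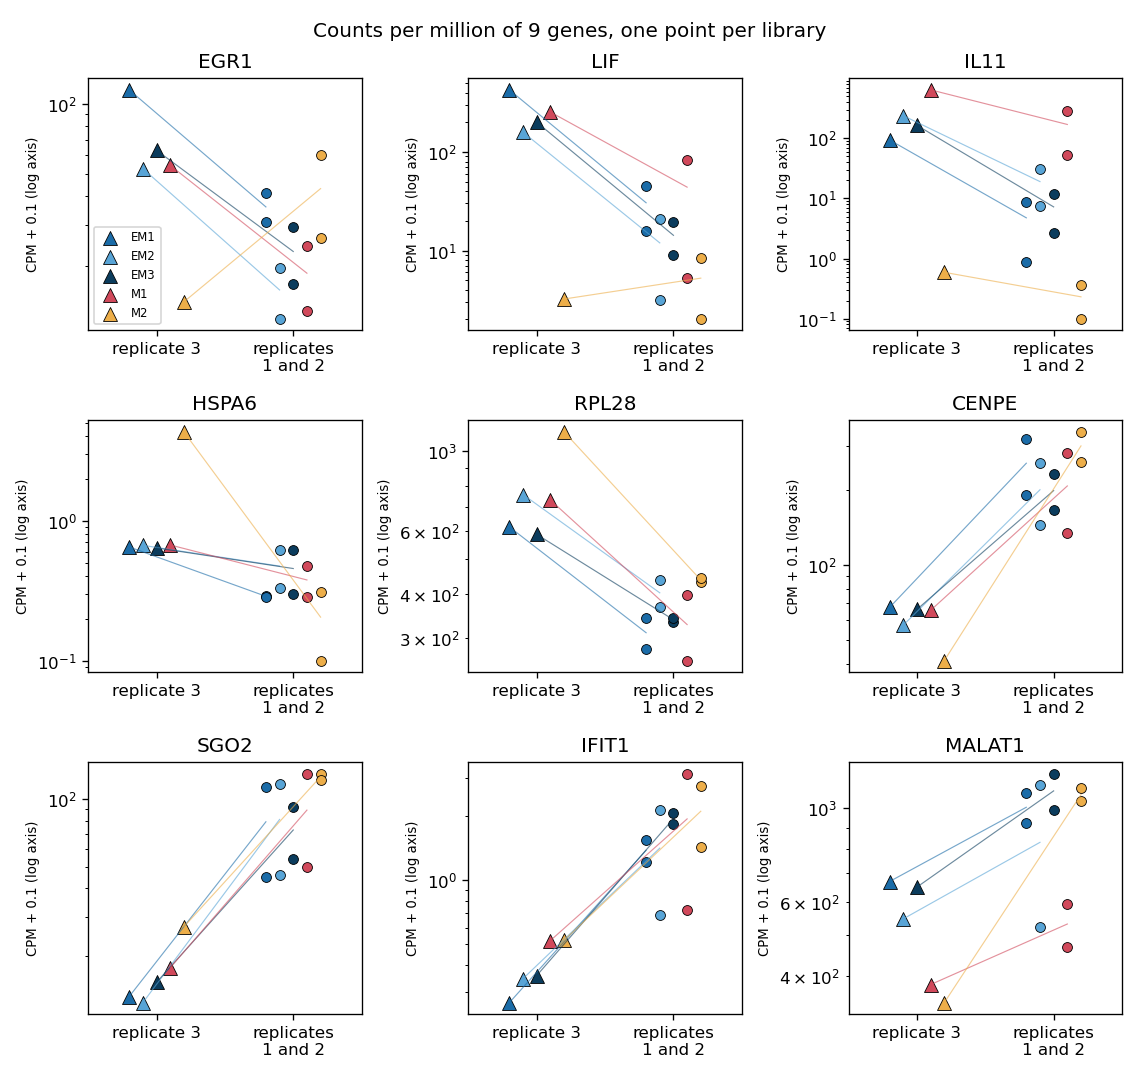
Each panel plots 1 gene on a log axis (CPM + 0.1), with replicate 3 on the left as triangles, replicates 1 and 2 on the right as circles, colours for clones and lines that join each clone's replicate 3 to the mean of its other replicates. RPL28, CENPE, SGO2, IFIT1 and HSPA6 separate replicate 3 from the other libraries, while EGR1, LIF and IL11 overlap because of M2 and, for IL11, M1.

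The replicate 3 difference was also compared between M1 and M2 and the 3 EM clones. By the interaction term in edgeR 0 of 18069 genes were called, with 1850 at an unadjusted p under 0.05 and a smallest adjusted p of 0.154. DESeq2 called 287, limma-voom 3 and the TPM test 9. The edgeR count was 76 without M1 replicate 3 and 28 without clone M1. M1 and M2 replicate 3 had list medians of opposite sign for NF-kB genes, and a p that misses the threshold does not show that M and EM clones shifted alike.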

How the data were processed

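RNA-seq gene tables of 21 libraries were used, 15 of them in the tests. Per the submitters' processing notes the authors used bcl2fastq 2.20.0.422, cutadapt 2.4, STAR 2.7.2b and RSEM 1.3.2 on hg38, and the annotation release, strand setting and fragment model were not given in the sources used here. Per the file headers the deposited values are expected counts (reads assigned to a gene by RSEM), TPM and effective length in bases. In a library 7.4 to 8.6% of expected counts were not whole (tolerance 0.001). The authors' TPM divides those counts by effective length and scales each library. Tables held 60617 genes, of which 58542 were in GENCODE 29, which gave positions, gene types and GC content, the mean over a gene's transcripts. There were 0 columns of other samples.

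Rounded counts went into edgeR 4.0.16 (R 4.3.3). After a low-count filter by clone and TMM scaling, a robust quasi-likelihood fit had clone and set as terms, 9 residual degrees of freedom and a common biological coefficient of variation of 26.5%. Normalization factors were 0.93 to 1.08. The GC offset was a lowess trend (span 0.3) on GC content, fitted per library to the deviation of log2 CPM from each gene's mean over the libraries. Library measures were tested by an exact permutation over all choices of 1 library per clone, adjusted over 8 measures. Alternatives were DESeq2 1.42.0, limma-voom and limma-trend (limma 3.58.1, log2(TPM + 1), mean TPM of at least 1), other filters and scalings, an effective length offset, subsets of clones and each library or clone left out, and those with GC content were added after the data were seen. On simulated data edgeR recovered 77.6, 95.5 and 98.5% of 67, 67 and 66 genes changed 2-, 4- and 8-fold. There were 17719 genes, and 11 unchanged genes were called. Few genes were changed there, where 43.4% of genes tested were called in the data. Recovery and false calls with so large a share of genes changed was not tested. The 32 lists (696 genes, and every replication-dependent histone gene) and the comparison were chosen with earlier results of these data known. Named genes are the 15 largest shifts each way among protein-coding genes with a mean CPM of at least 1, the 3 largest of other types, the smallest p-values in each list, and called genes of the stress, growth and inflammation lists, and the text gives a part of them. Any other gene was named after its values were seen. Python 3.11.15, pandas 2.3.3, numpy 2.4.6, scipy 1.17.1 and matplotlib 3.10.9 were used.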

Additional observations from a re-analysis of the deposited data

Results flagged for a closer look

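Of 161 sets of 5 clone differences, 17 had 1 clone far from the other 4 (gap over range above 0.71). Chance gives about 1 in 20 for independent sets. These sets share libraries and genes, and some genes were named after their values were seen. The count of 17 therefore cannot be set against that rate. M2 was the clone in 15 of them and EM2 in 2. Heat shock genes were higher in M2 replicate 3 than in the other clones: HSPA1A differed from the mean of replicates 1 and 2 by 6.28 in M2 on the log2 scale (-0.23 to 0.81 in the others), HSPA1B by 5.36 (-0.61 to 0.03), HSPA6 by 5.20 (0.63 to 1.33), HSPA8 by 2.21 (-0.19 to 0.28) and DNAJB1 by 2.04 (-0.44 to 0.15), and the median of the heat shock list was 0.97 (-0.31 to 0.02). HYOU1, a chaperone of the endoplasmic reticulum, differed by 1.41 in M2 (0.38 to 0.61). EGR1, LIF and IL1B went against the other clones in M2, EGR1 by -1.503 (1.504 to 1.78), LIF by -0.37 (3.61 to 4.31) and IL1B by -3.24 (0.95 to 2.45). CENPE fell most in M2, at -2.86 (-1.88 to -1.57), as did MALAT1, at -1.64 (-0.75 to -0.47), and the median of the FOXO and glucose list was -1.27 (-0.29 to 0.08). AP003419.1 and AL163540.1 fell least in M2, at -3.21 (-6.43 to -5.79) and -4.36 (-6.56 to -5.94). In EM2, KRT16 differed by 3.58 (2.33 to 2.61 in the others), and the median of MHC class I genes was -0.14 (0.42 to 0.61). In M2 the replicate 3 library was also the deepest of the 15 and replicate 2 the shallowest, at 47714108 and 25039391 counts, and the part of depth in these values was not tested.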

How the results depend on the processing

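No paired analysis was possible because the replicate number is itself the contrast, and the clone, not the number, was the block. With each library left out in turn, genes called numbered 5794 to 8679, higher 2835 to 4466, lower 2959 to 4213, shifted in all clones 2127 to 2923 higher and 2387 to 3288 lower, replicate 2 against 1 stayed at 0 and M against EM at 0 to 76. Called, higher, lower and shifted higher and lower numbered 2608, 1030, 1578, 849 and 1390 without the clone block, 4530, 2465, 2065, 1461 and 1309 with the GC offset, 4555, 2455, 2100, 1466 and 1326 with GC and length offsets, 2345, 1076, 1269, 537 and 867 at a log2 difference of at least 1, and 1, 1, 0, 1 and 0 in the M clones alone, where 6 libraries left 3 residual degrees of freedom. Against replicate 2 only, 4690 were called, 2225 higher and 2465 lower. On TPM 5061 were called, 1311 higher, with 594 shifted higher, and 9 for M against EM. Without clone EM1, 2596 were called higher. For replicate 2 against 1, no low-count filter called 140 and DESeq2 4. For M against EM, no filter called 710, DESeq2 287, limma-voom 3, replicate 3 against replicate 1 only 4 and the data without clone M1 28. The signs of HSPA4 (0.10 with GC and 0.087 with GC and length offsets), HSPA1B (-0.36 in the EM clones only, -0.32 without clone M2, and -0.32 to 1.21 with a library left out, lowest without M2 replicate 3), DNAJB1 (-0.27, -0.17 and -0.17 to 0.54 in the same settings, and 0.55 without clone EM3), HSPA8 (-0.042 in the EM clones only), CXCL8 (-1.14) and IL6 (-0.12, both in the M clones only) were reversed, and the cause was not tested. Among single genes and list counts, 5957 values kept direction and call, 466 moved by over 1.5 times, 251 lost the call and 10 gained it. All M2 genes named for heat shock rest on 1 library.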
